A study of Mus musculus with 45 samples.

Results

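The 10 tubule injury and dedifferentiation markers described here are *Havcr1*, *Lcn2*, *Krt7*, *Krt8*, *Krt18*, *Krt19*, *Krt20*, *Vcam1*, *Spp1* and *Sox9*. The list is fixed by gene name, with no threshold on a measured value, but was chosen with earlier results of these data known. All 10 were found in both count tables and both TPM tables, among the 15828 protein-coding genes tested in both sexes. The libraries are TRAP RNASeq of kidneys from 45 mice at 7 weeks of age. TRAP (translating ribosome affinity purification) pulls down ribosomes through L10a fused to EGFP, so it samples mRNA under translation in the cells that make the tag. The 3 genotypes were noncystic (Pkd1fl/+), Pkd1KO (Pkd1fl/fl) and Pkd1KO+ciliaKO (Pkd1fl/fl; Kif3afl/fl), where loss of *Kif3a*, a motor subunit of intraflagellar transport, removes cilia. Every mouse, the noncystic controls included, also carried R26Rpl10a, Pax8rtTA and TetOCre and was given doxycycline by mouth between postnatal days 28 and 42, with kidneys taken on day 49. The noncystic group, labelled WT, therefore carried 1 floxed *Pkd1* allele, and Cre and the tag are restricted to cells in which the Pax8rtTA driver was active, the nephron and collecting duct epithelium. The 24 males were 8 noncystic, 7 Pkd1KO and 9 Pkd1KO+ciliaKO mice and the 21 females 7, 8 and 6, and each mouse was 1 replicate.

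An injured tubule cell loses transporters and switches on genes it does not use at rest. *Havcr1* encodes Kim1, a phosphatidylserine receptor on the surface of injured proximal tubule cells, and *Lcn2* encodes the secreted iron-siderophore carrier Ngal, made mainly in the distal nephron. *Spp1* encodes the secreted phosphoprotein osteopontin, *Vcam1* an adhesion molecule that marks proximal tubule cells that fail to repair, and *Sox9* a transcription factor of the embryonic nephron that returns during repair. Keratins 7, 8, 18, 19 and 20 build intermediate filaments of simple epithelia, in which a type II chain (*Krt7*, *Krt8*) pairs with a type I chain (*Krt18*, *Krt19*, *Krt20*). Tubule injury markers are of interest in polycystic kidney disease because cyst-lining cells express several of them.

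The libraries held 80874556 to 132958186 counts each, so 3 counts, taken as the floor, stood at 0.0226 to 0.0371 CPM (counts scaled to library size), below every value of the 10 markers. *Kif3a*, the check of the genotype labels, was between 4.90 and 7.45 CPM in the 9 male Pkd1KO+ciliaKO mice. It was 13.8 CPM in noncystic male 8, between these and the rest, and between 20.4 and 29.2 CPM in the other noncystic and Pkd1KO males. In females it was between 6.56 and 8.47 CPM in 5 of the 6 Pkd1KO+ciliaKO mice and between 23.2 and 28.3 CPM in 14 of the 15 others. The remaining 2 libraries went against their labels on *Kif3a*: the library labelled noncystic female 5 had 6.69 CPM, and the library labelled Pkd1KO+ciliaKO female 6 had 20.7 CPM. *Pkd1* had a log2 fold change of -0.45 (SE 0.155, edgeR adjusted p = 0.0991) in Pkd1KO against noncystic males and of -0.22 (SE 0.128, edgeR adjusted p = 0.418) in females, and its counts cover the whole gene, not only the deleted part. In Pkd1KO+ciliaKO against noncystic mice *Pkd1* was at -0.13 (SE 0.182, edgeR adjusted p = 0.700) in males and 0.08 (SE 0.0802, edgeR adjusted p = 0.614) in females. In Pkd1KO against Pkd1KO+ciliaKO mice it was at -0.31 (SE 0.177, edgeR adjusted p = 0.343) in males and -0.31 (SE 0.133, edgeR adjusted p = 0.144) in females. The first principal component held 42.3% of the variance and mostly separated the sexes, but 4 males lay toward the females. Noncystic male 3 and Pkd1KO male 4, at -9.76 and -1.13, stayed outside the female scores of -38.4 to -12.9. Pkd1KO+ciliaKO males 6 and 8, at -23.7 and -30.2, lay within the female scores. Where the number of markers past the test threshold changed without these libraries, both numbers are given. Most results of the wider gene lists are given with all libraries only. Genes of the mature proximal tubule summed to 20120 to 44836 CPM per mouse over 20 genes. Macrophage, endothelial and podocyte markers were also detected, with sums of 74.5 to 843, 88.1 to 515 and 84.4 to 401 CPM. Because each library pools the tagged ribosomes of a whole kidney, fewer cells of a type and less RNA per cell cannot be told apart.

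The promoters of *Lcn2*, *Krt20* and *Spp1* are shown because these were the markers that passed a test between genotypes. The sequences are RefSeq's on GRCm38.p6, the 250 bases before the annotated gene start, 5′ to 3′ on the gene's strand. Capitals in *Lcn2* (chr2:32387740-32387989, minus strand) mark a match, on the other strand, to a loose form of the site bound by NF-kB (GGG, any 5 bases, CC), 102 bases before the start. Capitals in *Krt20* (chr11:99438154-99438403, minus strand) and *Spp1* (chr5:104434861-104435110, plus strand) mark TATAAA, the TATA box letters, at 29 and 211 bases before the start.
Lcn2: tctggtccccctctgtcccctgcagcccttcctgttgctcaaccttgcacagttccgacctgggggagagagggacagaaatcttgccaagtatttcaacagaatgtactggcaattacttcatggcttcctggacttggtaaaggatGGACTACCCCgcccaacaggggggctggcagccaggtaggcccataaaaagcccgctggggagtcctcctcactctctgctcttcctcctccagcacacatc
Krt20: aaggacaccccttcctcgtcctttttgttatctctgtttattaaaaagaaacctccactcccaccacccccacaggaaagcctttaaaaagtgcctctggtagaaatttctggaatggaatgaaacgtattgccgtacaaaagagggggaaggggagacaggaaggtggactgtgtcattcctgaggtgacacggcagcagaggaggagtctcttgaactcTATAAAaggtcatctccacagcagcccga
Spp1: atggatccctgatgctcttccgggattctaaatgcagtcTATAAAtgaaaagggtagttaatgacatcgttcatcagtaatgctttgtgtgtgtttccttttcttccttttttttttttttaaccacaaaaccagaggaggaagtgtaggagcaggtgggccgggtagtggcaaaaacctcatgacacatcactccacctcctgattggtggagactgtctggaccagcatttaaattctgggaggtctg
RefSeq windows of 300 bases, 250 before to 50 after a start, were matched for 7 of the 10 markers and for 10 starts in all. *Krt19*, *Vcam1* and *Sox9* had none. On either strand the NF-kB letters were found in a window of *Lcn2*, *Krt7*, *Krt8* and *Krt18*, but 50.8% of all 32851 windows hold it. TATAAA was found in *Krt8*, *Krt20* and *Spp1*, against 13.6% of all windows, and TGANTCA (AP-1) only in 1 of the 3 *Havcr1* windows, against 7.81%. TTCNNNGAA (STAT) was in none of the 10 windows, against 8.3% of all windows. Overlapping matches were counted in *Krt8* and *Krt18*. These are matches of letters and not measured binding.

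Per length, *Spp1* was far above the other markers and *Sox9* below them by median in every group. In noncystic males the deposited TPM of *Spp1* was 608, 830 and 1453 (lowest, median and highest of 8 mice) and that of *Krt8* 156, 192 and 236. *Krt18* had a median of 78.3 TPM, *Krt7* of 74.7, *Havcr1* of 15.4 and *Krt19* of 10.3. At the low end *Krt20* had a median of 3.34 TPM, *Lcn2* of 2.42, *Vcam1* of 2.17 and *Sox9* of 0.521. Ranges of neighbours in this order overlapped between *Krt18* and *Krt7*, *Krt7* and *Havcr1*, *Havcr1* and *Krt19*, *Krt20* and *Lcn2*, and *Lcn2* and *Vcam1*. The order of these neighbours is by median only, and differences between markers were not tested. *Spp1*, *Krt8*, *Krt18*, *Krt7*, *Havcr1* and *Krt19* held places 1 to 6 in all 6 groups. The order below them changed: *Lcn2* was above *Krt20* in Pkd1KO males, in male and female Pkd1KO+ciliaKO mice and in noncystic females, and *Krt20* was above *Lcn2* in noncystic males and Pkd1KO females. *Havcr1* ranged from 6.19 to 83.8 TPM in noncystic males and from 14.7 to 129 TPM in noncystic females. The TPM tables of the sexes were scaled separately, so levels set across the sexes are a description. Counts of *Krt7*, *Krt8*, *Vcam1* and *Spp1* are uncertain to the extent that each overlaps a predicted gene (Gm671, Gm36026, Gm43109 and Gm42793), since whether the counting used strand is not given in the sources used here. These 4 overlapping genes held at most 192, 22, 3 and 32 counts in a library.

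**Figure D1:**
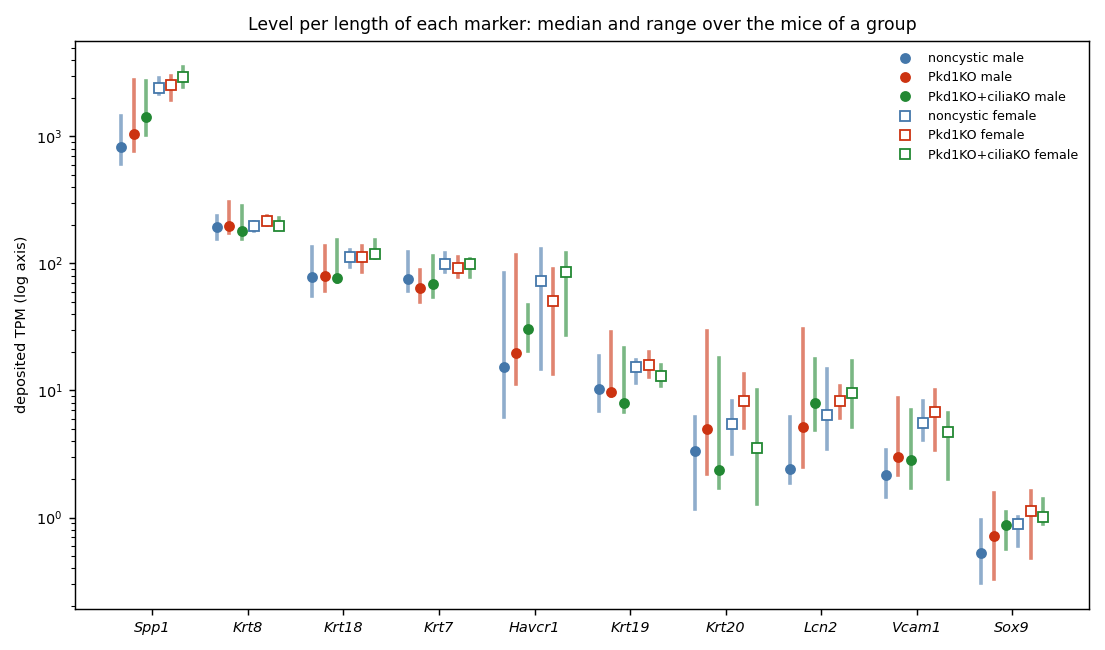
Deposited TPM on a log axis for each marker, ordered by its median in noncystic males; points are group medians (filled circles males, open squares females), lines run from the lowest to the highest mouse, and colours give the genotype. *Spp1* sits highest, with medians from 830 to 2934 TPM, and *Sox9* lowest, with medians from 0.521 to 1.13 TPM.

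In males, loss of *Pkd1* was followed by higher *Lcn2* and *Krt20*, and most of that rise lay in 2 of 7 mice. Levels from here on are TMM-normalised CPM, folds are on the log2 scale with their standard error (SE), and adjusted p comes from edgeR (quasi-likelihood test, adjusted by Benjamini-Hochberg over all genes tested), with 0.05 as the threshold. Of the 10 markers 2 passed, both higher, where 6.3% of all 15991 genes passed in either direction, and 4.05% passed as higher. The median log2 fold change of the markers was 0.71, against -0.01 over all genes.

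*Lcn2* (ENSMUSG00000026822.14, chr2:32384633-32388252) was at 1.69, 2.15 and 4.63 CPM in noncystic males (lowest, median and highest) and at 2.72, 4.63 and 26.1 CPM in Pkd1KO males. Pkd1KO males 3 and 4 had 26.1 and 22.7 CPM, while the other 5 had 2.72 to 4.99 CPM and overlapped the noncystic range. The means were 2.51 ± 1.00 CPM (SD, n = 8) and 9.76 ± 10.1 CPM (SD, n = 7), a log2 fold change of 1.96 (SE 0.493, edgeR adjusted p = 0.0248). *Krt20* (ENSMUSG00000035775.2, chr11:99428403-99438150), a keratin of the intestine and urothelium, was at 0.808, 2.23 and 3.41 CPM in noncystic males and at 1.78, 3.53 and 18.6 CPM in Pkd1KO males. Mice 3 and 4 again stood above the rest, at 18.6 and 10.4 CPM, against 1.78 to 3.80 CPM in the other 5. The log2 fold change of *Krt20* was 1.61 (SE 0.460, edgeR adjusted p = 0.0471).

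The other 8 markers did not pass in Pkd1KO males. *Vcam1* (ENSMUSG00000027962.14, chr3:116109949-116129688) was at 4.64, 6.51 and 10.03 CPM in noncystic and 7.90, 8.97 and 25.7 CPM in Pkd1KO males, with a log2 fold change of 0.96 (SE 0.284, edgeR adjusted p = 0.0543). *Spp1* (ENSMUSG00000029304.14, chr5:104435118-104441050) was at 362, 472 and 683 CPM against 495, 591 and 1493 CPM, with a log2 fold change of 0.65 (SE 0.233, edgeR adjusted p = 0.110). In both genes mice 3 and 4 lay above every noncystic male, at 25.7 and 22.6 CPM of *Vcam1* and 1493 and 1127 CPM of *Spp1*. *Havcr1* (ENSMUSG00000040405.13, chr11:46735080-46779578) was at 5.17, 12.3 and 55.3 CPM in noncystic and 9.79, 15.6 and 88.5 CPM in Pkd1KO males. The 55.3 CPM came from noncystic male 3, the other 7 noncystic males had 5.17 to 19.1 CPM, and the log2 fold change of 0.92 had an SE of 0.558 (edgeR adjusted p = 0.355). *Sox9* (ENSMUSG00000000567.5, chr11:112782224-112787760) was at 0.446, 0.718 and 1.13 CPM against 0.566, 1.04 and 2.13 CPM, with a log2 fold change of 0.77 (SE 0.287, edgeR adjusted p = 0.126). The groups overlapped in all of these genes.

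The remaining keratins moved little between noncystic and Pkd1KO males. *Krt8* (ENSMUSG00000049382.10, chr15:101996698-102004482) was at 102, 132 and 147 CPM in noncystic and 119, 131 and 197 CPM in Pkd1KO males, a log2 fold change of 0.16 (SE 0.104). Its usual partner *Krt18* (ENSMUSG00000023043.7, chr15:102028180-102032027), which lies beside it on the chromosome, was at 28.2, 38.9 and 55.6 CPM against 36.1, 40.2 and 64.9 CPM, a log2 fold change of 0.19 (SE 0.160). *Krt7* (ENSMUSG00000023039.17, chr15:101411043-101430313), a keratin of ducts and urothelium, was at 143, 175 and 248 CPM against 128, 155 and 195 CPM, and was the 1 marker with a value below 0, a log2 fold change of -0.22 (SE 0.123). *Krt19* (ENSMUSG00000020911.14, chr11:100140810-100148665), a keratin of ductal and progenitor-like cells, was at 4.30, 6.35 and 9.95 CPM against 5.73, 6.34 and 15.7 CPM, a log2 fold change of 0.36 (SE 0.246). The medians of *Krt8*, *Krt18* and *Krt19* were close in both groups, and the highest values again belonged to Pkd1KO males 3 or 4.

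**Figure D2:**
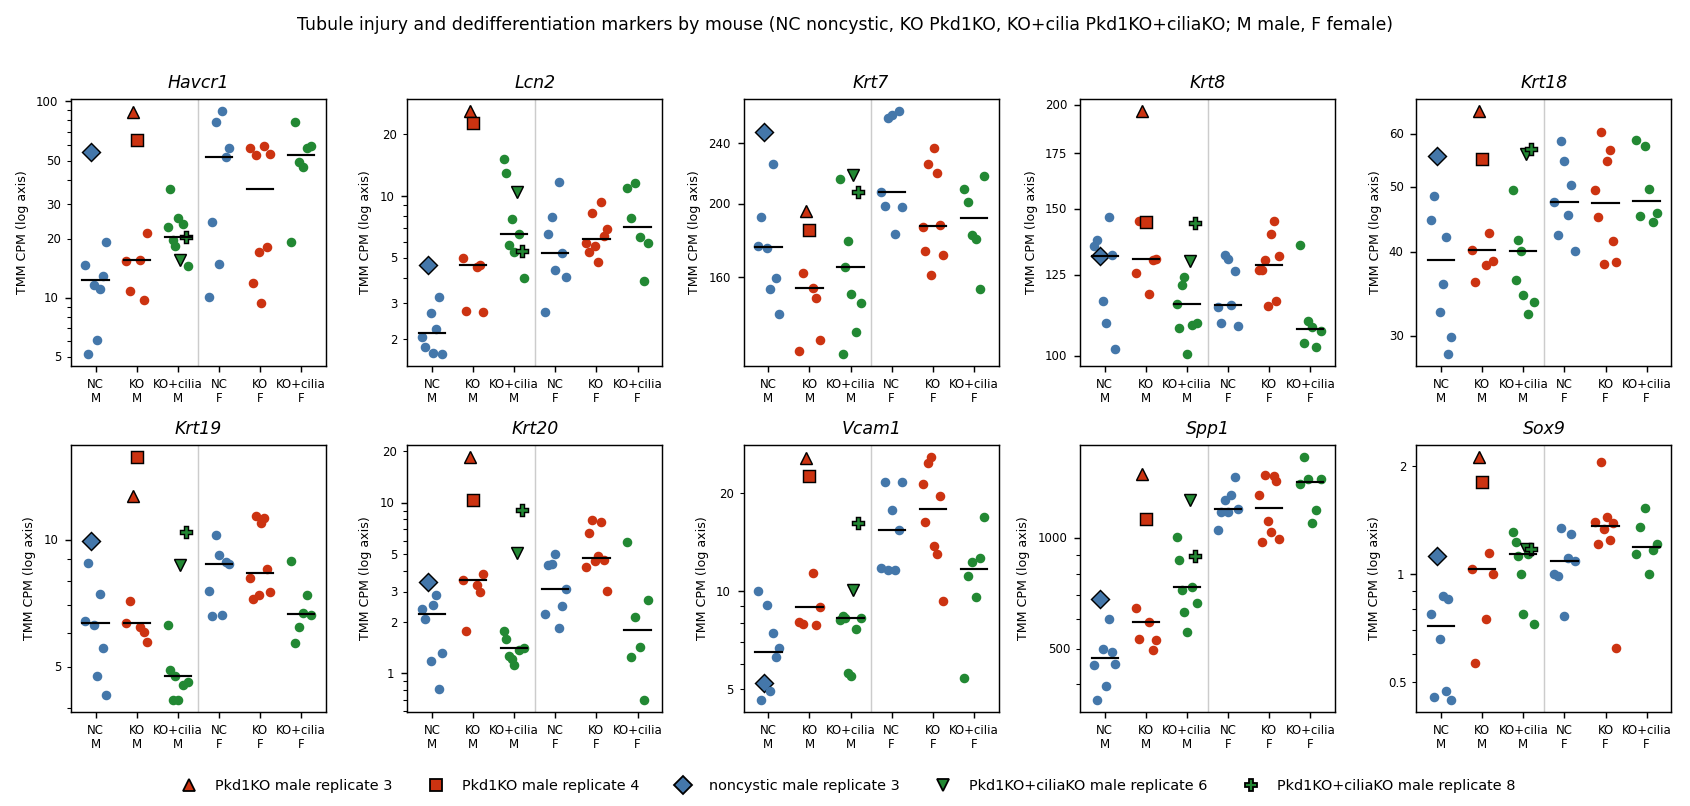
TMM-normalised CPM of each marker in each of the 45 mice on a log axis, by genotype and sex; bars are group medians, and outlined symbols mark Pkd1KO males 3 and 4, noncystic male 3 and Pkd1KO+ciliaKO males 6 and 8. Pkd1KO males 3 and 4 stand above the other Pkd1KO males in *Havcr1*, *Lcn2*, *Krt20*, *Vcam1*, *Spp1* and *Sox9*.

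Pkd1KO male 3 was the highest of its group in 9 of the 10 markers and among the highest 2 in all 10, and Pkd1KO male 4 was among the highest 2 in 9. Without both mice, a choice made after their values were seen, 0 of the 10 markers passed, at 3.91% of all genes. *Lcn2* then had a log2 fold change of 0.65 (SE 0.244, edgeR adjusted p = 0.194) and *Krt20* of 0.57 (SE 0.295, edgeR adjusted p = 0.387), and 2 of the 10 passed an unadjusted p of 0.05, *Lcn2* higher and *Krt7* lower. *Havcr1* turned from 0.92 to -0.22 (SE 0.457). Leaving out 1 library was enough to end the call of *Lcn2* when it was noncystic male 2, Pkd1KO male 3 or Pkd1KO male 4 (edgeR adjusted p = 0.0511, 0.0666 and 0.0568). The call of *Krt20* was lost without any 1 of 9 of the 15 libraries, with its log2 fold change at 1.06 without Pkd1KO male 3.

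Markers of other cells moved with these mice. The summed CPM of 9 macrophage markers was 843 in Pkd1KO male 4 and 274 in male 3, against 147 to 198 in the other 5 Pkd1KO males and 109 to 170 in noncystic males, and none of the 9 was at 0 in any of these mice. The 8 podocyte and parietal cell markers summed to 401 and 277 CPM in males 4 and 3, against 137 to 170 CPM in the other 5. The 9 endothelial markers summed to 515 CPM in male 4 but to 130 CPM in male 3, within the noncystic range of 88.1 to 302 CPM. Mature proximal tubule genes were lowest in male 4, at 20120 CPM, and were 28251 CPM in male 3, against 28656 to 36394 CPM in the other Pkd1KO males. Of 10 markers of neutrophils, which also make *Lcn2*, 2 passed the filter in males, and neither was called (median log2 fold change of 1.37 in Pkd1KO against noncystic and 1.44 against Pkd1KO+ciliaKO males). Their sum was 1.77 CPM in Pkd1KO male 4 and 0.202 CPM in male 3, against 0.165 to 0.402 CPM in the other 5 Pkd1KO males and 0.0793 to 0.485 CPM in noncystic males. *Ly6g*, a neutrophil surface antigen, was at 0 in 5 of 7 Pkd1KO and 7 of 8 noncystic males. What these cells contributed to the marker levels was not tested.

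**Figure D3:**
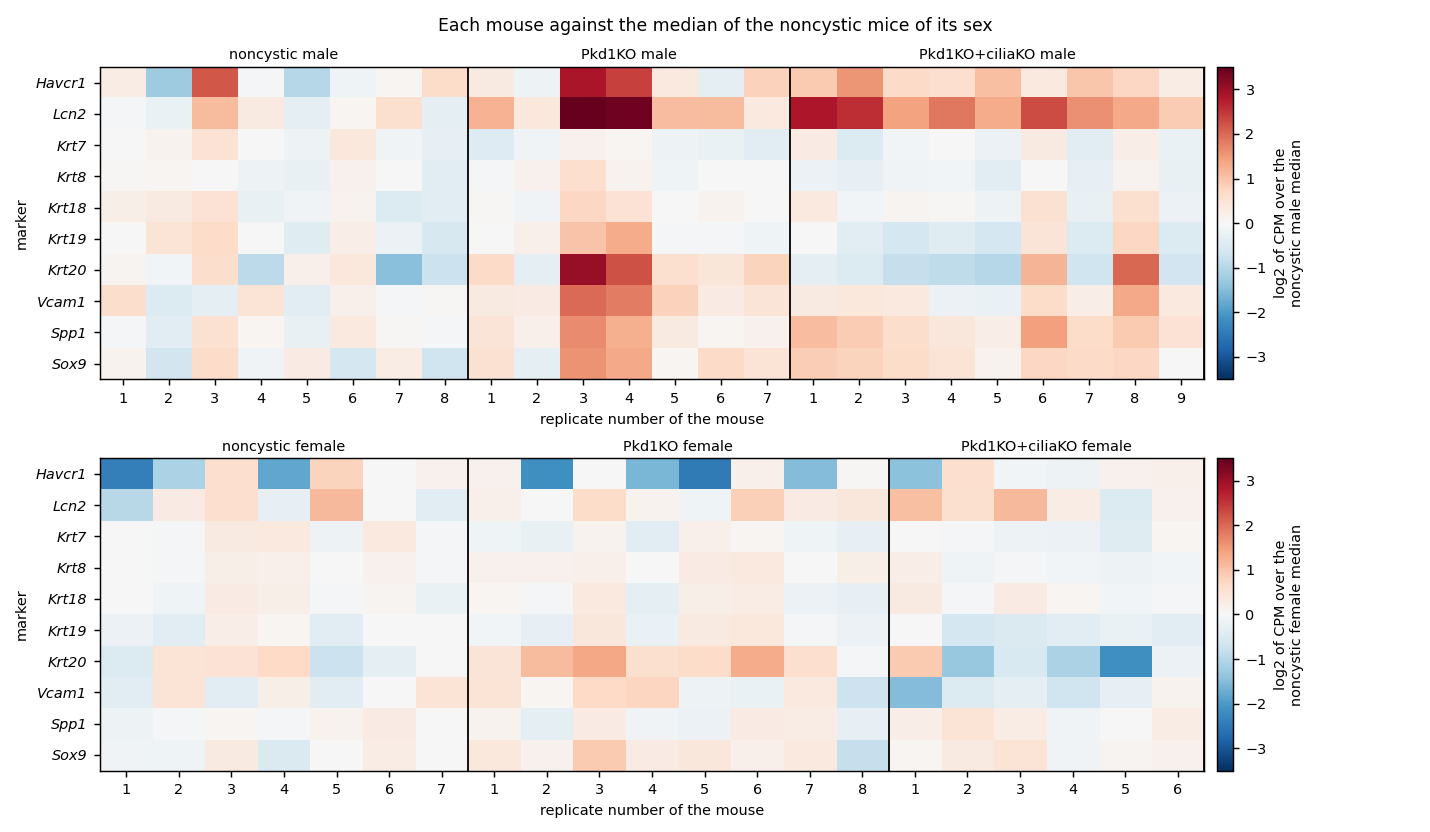
Log2 ratio of each mouse's TMM-normalised CPM to the median of the noncystic mice of its sex, with markers in rows and mice in columns, by group and replicate number. In males the columns of Pkd1KO mice 3 and 4 are red for most markers, *Lcn2* is red across all 9 Pkd1KO+ciliaKO males, and *Havcr1* lies on both sides of the noncystic median in each group of females.

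Male Pkd1KO+ciliaKO mice had higher *Lcn2* and *Spp1* than noncystic males, and here the rise was shared by the group. Of the 10 markers 2 passed, both higher, at 8.89% of all 15991 genes in either direction and 5.63% as higher, and the markers' median log2 fold change was 0.35, against 0.01 over all genes. *Lcn2* was at 3.98, 6.55 and 15.2 CPM in Pkd1KO+ciliaKO males against 1.69, 2.15 and 4.63 CPM in noncystic males. Its lowest value, in mouse 9, fell inside the noncystic range and the other 8 lay above every noncystic male. The means were 8.16 ± 3.87 CPM (SD, n = 9) and 2.51 ± 1.00 CPM (SD, n = 8), a log2 fold change of 1.70 (SE 0.277, edgeR adjusted p = 0.000905). *Spp1* was at 556, 737 and 1268 CPM, and 6 of the 9 mice lay above the highest noncystic male at 683 CPM. Its log2 fold change was 0.73 (SE 0.154, edgeR adjusted p = 0.00600). Both calls held without any 1 library, with log2 fold changes of 1.54 to 1.89 for *Lcn2* and 0.63 to 0.81 for *Spp1*.

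*Sox9* was at 0.725, 1.14 and 1.32 CPM in Pkd1KO+ciliaKO males, with 5 of 9 above every noncystic male, and a log2 fold change of 0.60 (SE 0.192, edgeR adjusted p = 0.0576). It passed without noncystic male 3 (0.72, edgeR adjusted p = 0.0139) and without Pkd1KO+ciliaKO male 9 (0.66, edgeR adjusted p = 0.0399). *Havcr1* was at 14.6, 20.4 and 35.6 CPM, above the noncystic median of 12.3 CPM but overlapping it, with a log2 fold change of 0.37 (SE 0.360, edgeR adjusted p = 0.570). Without noncystic male 3 and Pkd1KO+ciliaKO males 6 and 8, 4 markers passed, *Havcr1* at 0.98 (SE 0.253, edgeR adjusted p = 0.0171), *Lcn2*, *Spp1* and *Sox9*, where 14.0% of all genes passed. *Vcam1* was at 5.51, 8.29 and 16.2 CPM, with a log2 fold change of 0.35 (SE 0.199). None of the 5 keratins passed: their log2 fold changes were 0.35 for *Krt20*, 0.09 for *Krt18*, -0.10 for *Krt7* and *Krt8*, and -0.20 for *Krt19*. *Krt20* was at 1.12, 1.41 and 9.05 CPM, with mice 8 and 6 at 9.05 and 5.05 CPM and the other 7 at 1.12 to 1.77 CPM, below the noncystic median of 2.23 CPM. The macrophage sum was 95.8 to 168 CPM in these 9 mice, against 109 to 170 CPM in noncystic males. Most of this sum in noncystic males came from *Csf1r* and *Cd74*, with means of 77.3 and 38.7 CPM, so it says little of the other macrophage markers. Gene by gene, 8 of the 9 macrophage markers had values above 0, with a median log2 fold change of 0.48. Of them 1 passed as higher and 1 as lower, against 8.89% of all genes in either direction.

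Between Pkd1KO and Pkd1KO+ciliaKO males, which differ by design in the floxed *Kif3a* alleles, 0 of the 10 markers passed, at 3.77% of all genes. By edgeR 4 had an unadjusted p under 0.05, against 19.7% of all genes, all 4 higher in Pkd1KO. By DESeq2 0 passed, and *Krt20* passed by limma voom with sample quality weights. *Krt20* had a log2 fold change of 1.25 (SE 0.547, edgeR adjusted p = 0.215), *Krt19* of 0.55 (SE 0.257, edgeR adjusted p = 0.244), *Vcam1* of 0.60 (SE 0.285, edgeR adjusted p = 0.250) and *Krt8* of 0.26 (SE 0.0986, edgeR adjusted p = 0.145). Without Pkd1KO male 4 and Pkd1KO+ciliaKO males 6 and 8, *Krt20* passed at a log2 fold change of 2.01 (SE 0.441, edgeR adjusted p = 0.0176). *Lcn2* was at 0.26 (SE 0.478) and *Spp1* at -0.08 (SE 0.237). Without Pkd1KO males 3 and 4, the value of *Lcn2* turned to -1.05 (SE 0.308, edgeR adjusted p = 0.0670) that of *Spp1* was -0.55 (SE 0.165, edgeR adjusted p = 0.0748) and that of *Krt20* was 0.22 (SE 0.483). The other 5 Pkd1KO males had 2.72 to 4.99 CPM of *Lcn2*, against 3.98 to 15.2 CPM in Pkd1KO+ciliaKO males, and 495 to 645 CPM of *Spp1*, against 556 to 1268 CPM. All 5 lay above 7 of the 9 Pkd1KO+ciliaKO males in *Krt20*.

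In females few markers passed between genotypes. Against noncystic females, 0 of the 10 passed in Pkd1KO, at 3.34% of all 15968 genes, and 0 passed in Pkd1KO+ciliaKO, at 2.54%. By edgeR 1 and 2 had an unadjusted p under 0.05, against 16.4% and 21.4% of all genes, and by DESeq2 1 (*Krt20*) and 0 passed. *Krt20* was at 1.84, 3.10 and 5.00 CPM in noncystic and 3.04, 4.74 and 7.95 CPM in Pkd1KO females, with 3 of 8 Pkd1KO mice above every noncystic mouse. Its log2 fold change was 0.71 (SE 0.237, edgeR adjusted p = 0.120). *Lcn2*, which rose in males of both mutant genotypes, was at 2.71, 5.29 and 11.7 CPM in noncystic, 4.76, 6.17 and 9.35 CPM in Pkd1KO and 3.83, 7.05 and 11.6 CPM in Pkd1KO+ciliaKO females. The 3 ranges overlapped, and its log2 fold changes against noncystic females were 0.12 (SE 0.244) and 0.35 (SE 0.311). *Spp1* was at 1051, 1200 and 1467 CPM in noncystic, 973, 1207 and 1478 CPM in Pkd1KO and 1095, 1423 and 1660 CPM in Pkd1KO+ciliaKO females, with log2 fold changes of -0.01 (SE 0.107) and 0.15 (SE 0.0995).

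*Havcr1* spread widely in all 3 female groups, at 10.04, 52.3 and 89.5 CPM in noncystic, 9.38, 35.7 and 59.4 CPM in Pkd1KO and 19.3, 53.6 and 78.7 CPM in Pkd1KO+ciliaKO mice. In Pkd1KO females 4 mice lay between 53.2 and 59.4 CPM and the other 4 between 9.38 and 18.2 CPM, with none between. *Sox9* was at 0.768, 1.09 and 1.35 CPM in noncystic, 0.622, 1.37 and 2.06 CPM in Pkd1KO and 1.00, 1.19 and 1.53 CPM in Pkd1KO+ciliaKO females. *Krt7* had log2 fold changes of -0.20 (SE 0.102) in Pkd1KO and -0.24 (SE 0.105) in Pkd1KO+ciliaKO females against noncystic females, and *Krt18* stayed at 47.2 to 47.6 CPM by median in all 3 groups. *Krt7* medians were 207, 187 and 191 CPM in noncystic, Pkd1KO and Pkd1KO+ciliaKO females.

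In females *Krt20* was lower in Pkd1KO+ciliaKO than in Pkd1KO mice. It was the 1 marker of 10 that passed between Pkd1KO and Pkd1KO+ciliaKO females, where 11.7% of all 15968 genes passed in either direction and 7.05% as higher in Pkd1KO. Pkd1KO+ciliaKO females were at 0.697, 1.79 and 5.90 CPM, and only mouse 1, at 5.90 CPM, lay above the lowest Pkd1KO female at 3.04 CPM. The means were 5.44 ± 1.76 CPM (SD, n = 8) in Pkd1KO and 2.35 ± 1.88 CPM (SD, n = 6) in Pkd1KO+ciliaKO, a log2 fold change of 1.21 (SE 0.379, edgeR adjusted p = 0.0489). The call was lost without any 1 of 12 of the 14 libraries, with adjusted p up to 0.104, and kept without Pkd1KO female 8 or Pkd1KO+ciliaKO female 1. Without the library labelled Pkd1KO+ciliaKO female 6, *Krt20* was at 1.26 (SE 0.416, edgeR adjusted p = 0.0679) and *Vcam1* passed at 0.82 (SE 0.249, edgeR adjusted p = 0.0489).

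*Vcam1*, *Krt8* and *Krt19* lay the same way and did not pass in females. *Vcam1* was at 9.32, 17.9 and 25.9 CPM in Pkd1KO and 5.41, 11.7 and 17.0 CPM in Pkd1KO+ciliaKO females, with 4 of 8 above the highest of the latter, and a log2 fold change of 0.67 (SE 0.246, edgeR adjusted p = 0.0893). *Krt8* was at 115, 128 and 145 CPM against 102, 108 and 136 CPM, with a log2 fold change of 0.21 (SE 0.0697, edgeR adjusted p = 0.0599). Of the 6 Pkd1KO+ciliaKO values of *Krt8*, 5 lay below every Pkd1KO value, and mouse 1, at 136 CPM, did not. *Krt19* was at 7.23, 8.33 and 11.4 CPM against 5.70, 6.66 and 8.90 CPM, with a log2 fold change of 0.38 (SE 0.135, edgeR adjusted p = 0.0751). Without Pkd1KO+ciliaKO female 1, *Krt8*, *Krt19* and *Krt20* all passed, at log2 fold changes of 0.28, 0.47 and 1.72. The remaining 6 markers had values of -0.56 to 0.11 on the log2 scale.

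**Figure D4:**
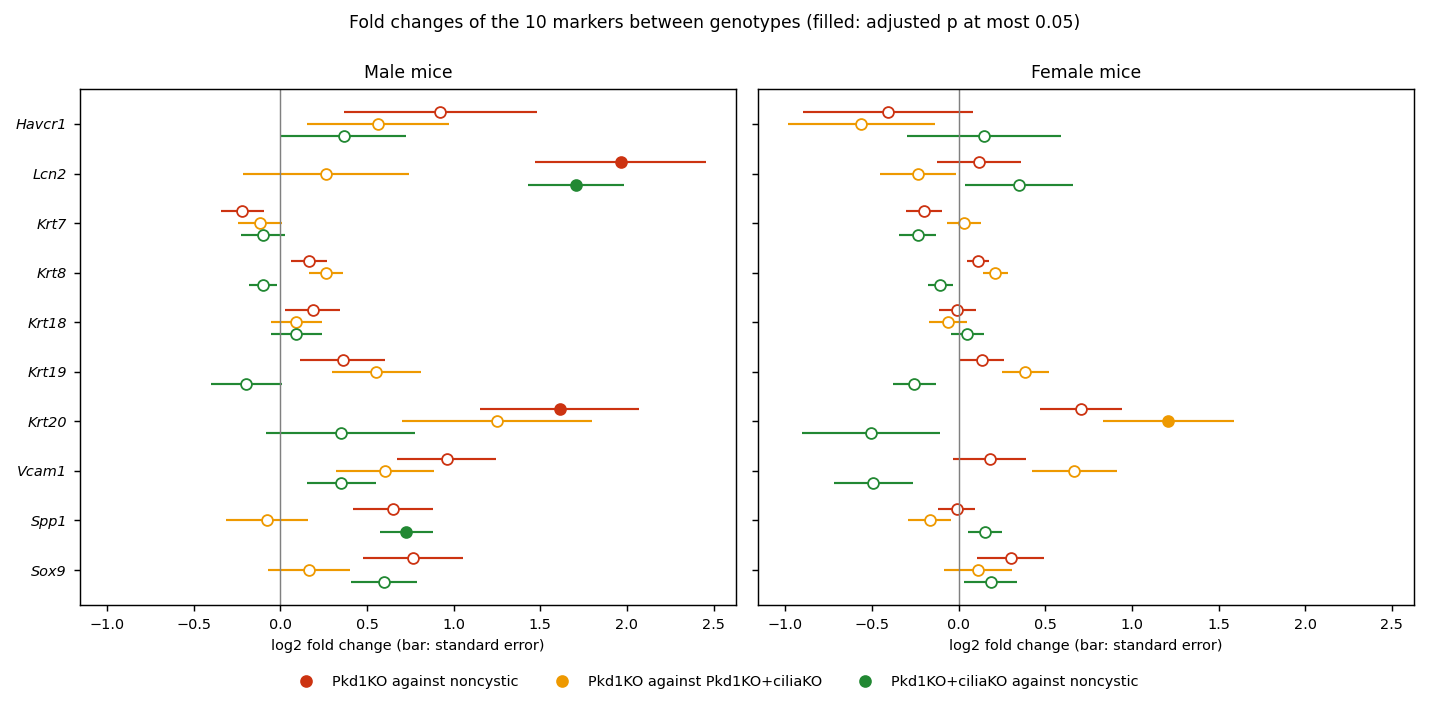
Log2 fold change of each marker in the 3 comparisons of genotypes, males left and females right, with bars of 1 SE and filled points where the edgeR adjusted p is at most 0.05. *Lcn2* reaches 1.96 and 1.70 in mutant males and 0.12 and 0.35 in mutant females, and *Krt20* in Pkd1KO against Pkd1KO+ciliaKO is 1.25 in males and 1.21 in females.

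More markers passed between the sexes than between genotypes, and so did more of all genes. In noncystic mice 5 of the 10 markers were higher in females and 0 lower, where 27.5% of all 15828 genes passed in either direction and 12.2% as higher in females, and the markers' median log2 fold change was 0.63, against 0.01 over all genes. *Spp1* and *Vcam1* did not overlap between the sexes: *Spp1* was at 1051 to 1467 CPM in females and 362 to 683 CPM in males, and *Vcam1* at 11.7 to 21.7 CPM against 4.64 to 10.03 CPM. Their log2 fold changes were 1.31 (SE 0.118, edgeR adjusted p = 4.26e-07) and 1.21 (SE 0.190, edgeR adjusted p = 0.000143). *Lcn2* was higher by 1.26 (SE 0.283, edgeR adjusted p = 0.00308), *Sox9* by 0.60 (SE 0.205, edgeR adjusted p = 0.0380) and *Havcr1* by 1.45 (SE 0.509, edgeR adjusted p = 0.0425) on the log2 scale, and in these 3 the ranges overlapped. The calls of *Spp1*, *Vcam1* and *Lcn2* held without any 1 library. *Havcr1* lost its call without any 1 of 11 and *Sox9* without any 1 of 9 of the 15 libraries, among them the library labelled noncystic female 5, without which they were at 1.21 (edgeR adjusted p = 0.0996) and 0.59 (edgeR adjusted p = 0.0593).

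Noncystic male 3, the male nearest the females on the first component in its group, had the highest noncystic male value in 8 of the 10 markers, all but *Krt8* and *Vcam1*. Without it 9 of the 10 passed as higher in females, every marker but *Krt8*, at 35.5% of all genes in either direction. *Havcr1* then reached a log2 fold change of 2.02 (SE 0.441, edgeR adjusted p = 0.00194), *Krt7* 0.35, *Krt18* 0.36, *Krt19* 0.40 and *Krt20* 0.81. *Krt8* was at 109, 115 and 132 CPM in noncystic females and 102, 132 and 147 CPM in noncystic males, with a log2 fold change of -0.10 (SE 0.0796). Fibroblast and endothelial markers were highest among noncystic males in this mouse, at 869 and 302 CPM, and their part was not tested.

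None of the 10 markers showed a difference between the sexes in a genotype effect that passed. In Pkd1KO against noncystic, 0 of 10 passed at 0.0126% of all 15828 genes, and 3 had an unadjusted p under 0.05, against 8.08%. These 3 were *Lcn2*, with a male effect above the female effect by 1.84 (SE 0.541, edgeR adjusted p = 0.247), *Vcam1* at 0.78 and *Spp1* at 0.66. *Havcr1* at 1.33 (SE 0.689) and *Krt20* at 0.91 (SE 0.640) had larger values than the last 2 but also larger errors. For *Lcn2* this value fell to 0.53 without Pkd1KO males 3 and 4. In Pkd1KO+ciliaKO against noncystic, 0 passed at 0.0316%, and these 3 genes had an unadjusted p under 0.05, against 5.49% of all genes, with *Lcn2* at 1.35 (SE 0.550, edgeR adjusted p = 0.780), *Vcam1* at 0.85 and *Spp1* at 0.58. In Pkd1KO against Pkd1KO+ciliaKO, 0 passed at 0.221% and 0 had an unadjusted p under 0.05, against 7.94%, and the difference for *Krt20* was 0.04 (SE 0.648). By DESeq2 0 of the 10 passed in each of these 3 tests. Since 2 of these effects share the noncystic mice of each sex, they are not independent.

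Among mice of the same group the 5 keratins varied together, and *Spp1* varied with most other markers. Pearson's r of log2(CPM + 0.1), after removing group means, was 0.82 between *Krt18* and *Krt19*, 0.80 between *Krt7* and *Krt18* and 0.77 between *Krt18* and *Krt20* over 45 mice, and the lowest value among the 5 keratins was 0.61, between *Krt7* and *Krt20*. Without Pkd1KO males 3 and 4 these 4 values were 0.80, 0.78, 0.71 and 0.55 over 43 mice. *Lcn2* and *Spp1* had r = 0.78, and 0.60 without both mice. *Spp1* with *Krt19* was 0.66, with *Krt20* 0.62 and with *Krt18* 0.59, and 0.50, 0.43 and 0.45 without both mice. *Havcr1* varied with *Lcn2* (0.61) and *Spp1* (0.59) but hardly with *Krt8* (0.14), its r with *Vcam1* was 0.31, and *Vcam1* with *Lcn2* was 0.28, and -0.15 without both mice. All values of a mouse share 1 library, so these are descriptions of the libraries. Among the genes with the highest r over the 45 mice were *Cd44*, *Il1rn* and *Gxylt2* for *Vcam1* (0.87, 0.85 and 0.85), *Sprr2f* and *Arl4c* for *Lcn2* (0.81 and 0.80), and *Slc7a6*, *Pdpn* and *Setd7* for *Spp1* (0.85, 0.82 and 0.81). For *Havcr1* they were *Psrc1*, *Tmem43* and *Ccdc74a*, at most 0.71, and for *Sox9* they were *Tnfrsf23*, *Akr1b8* and *Arl4c*, at most 0.77. For *Krt19* they were *Plcd1*, *Fam129b* and *Krt18* (0.86, 0.83 and 0.82), for *Krt18* *Krt19*, *Nfe2l2* and *Fam129b*, for *Krt20* *Capn2*, *Nfe2l2* and *Krt18*, for *Krt7* *Krt18* and *Tbc1d2*, and for *Krt8* *Wdr1*, *Lsg1* and *Pkp2*.

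A wider list of injury genes was also counted in males. Like the markers, it was chosen with earlier results of these data known, so its counts are a description and no independent support. Of 30 injury response genes tested, 10 were higher and 0 lower in Pkd1KO than in noncystic males, where 4.05% of all genes passed as higher, and their median log2 fold change was 0.58, against -0.01 over all genes. They included *Lgals3*, the lectin galectin-3, at 0.64 (SE 0.124), the annexin *Anxa3* at 1.25 (SE 0.281), the Tweak receptor *Tnfrsf12a* at 0.91 (SE 0.206) and the calcium-binding *S100a6* at 1.40 (SE 0.344). Without Pkd1KO males 3 and 4, 4 of the 30 passed, at 3.91% of all genes in either direction. In Pkd1KO+ciliaKO against noncystic males 5 were higher and 0 lower (median 0.40), led by *Anxa1*, *Cdh6*, *Tnfrsf12a* and *S100a6*, where 5.63% of all genes passed as higher. Without noncystic male 3 and Pkd1KO+ciliaKO males 6 and 8, 11 passed, but so did 14.0% of all genes in either direction. Between the mutant genotypes in males only *Il34*, a ligand of the macrophage receptor Csf1r, passed, at 0.85 (SE 0.205) higher in Pkd1KO, against 3.77% of all genes. Without Pkd1KO males 3 and 4, 0 were higher and 1 lower, at 4.39% of all genes. The summed level of the list was 1907 and 2280 CPM in Pkd1KO males 3 and 4, against 1109 to 1196 CPM in the other 5 and 808 to 1169 CPM in noncystic males.

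In females 5 of the 30 injury response genes were higher in Pkd1KO than in noncystic mice and 0 lower (median 0.17), among them *Akap12*, *S100a11*, *Il34* and *Lgals3*, where 3.34% of all genes passed in either direction. In Pkd1KO against Pkd1KO+ciliaKO females 6 were higher and 0 lower (median 0.23), led by *Anxa3*, *Cdh6*, *Lgals3* and *S100a11*, where 7.05% of all genes passed as higher. In Pkd1KO+ciliaKO against noncystic females 0 passed (median -0.04), at 2.54% of all genes in either direction. Without the 2 libraries whose *Kif3a* goes against the label, 1 was higher and 1 lower there, at 5.8% of all genes. In noncystic mice 20 were higher in females and 2 lower (median 0.66), led by *Cdh6*, a cadherin of the immature nephron, at 2.08 (SE 0.176), *Wfdc2*, *Lgals3* and complement *C3*, where 12.2% of all genes passed as higher and 27.5% in either direction. Without the library labelled noncystic female 5, these counts were 17 and 1, at 24.2% of all genes in either direction.

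Inflammatory genes that are targets of NF-kB and STAT3 were also counted. Of 14 tested, 3 were higher in Pkd1KO than in noncystic males, where 4.05% of all genes passed as higher. These were the cytokine *Lif* at 1.75 (SE 0.357), its feedback inhibitor *Socs3* at 1.54 (SE 0.345) and the chemokine *Cxcl10* at 1.19 (SE 0.286). In Pkd1KO+ciliaKO against noncystic males 4 were higher, *Lif*, *Socs3*, *Cxcl2* and *Relb*, at 5.63% of all genes. None of the 14 passed between the mutant genotypes in males, at 3.77% of all genes in either direction. In females 1 (*Cxcl10*) passed in Pkd1KO, 0 in Pkd1KO+ciliaKO and 3 between them, *Cxcl10*, *Cxcl2* and *Lif*, all higher in Pkd1KO, against 3.34%, 2.54% and 11.7% of all genes. Between noncystic females and males 9 were higher and 1 lower, led by *Cebpd* at 1.94 (SE 0.186), where 12.2% of all genes passed as higher and 27.5% in either direction.

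The counts of the remaining lists stand against the same shares of all genes that passed in either direction. In males these were 6.3% in Pkd1KO and 8.89% in Pkd1KO+ciliaKO against noncystic mice and 3.77% between the mutant genotypes, and in females 3.34%, 2.54% and 11.7%. Among 15 progenitor and mesenchymal genes, 1 was higher in Pkd1KO than in noncystic males (*Acta2*) and 3 in Pkd1KO+ciliaKO males, the nephron transcription factors *Sox4* at 0.44 (SE 0.0855) and *Sox11* at 1.12 (SE 0.266) and the progenitor marker *Prom1* at 0.50 (SE 0.128). *Prom1* alone passed in Pkd1KO females against noncystic females, 0 passed in Pkd1KO+ciliaKO females, and between Pkd1KO and Pkd1KO+ciliaKO mice 3 were higher and 2 lower in females and 0 and 1 (*Cd24a*) in males. Of 17 other keratins and desmosome plaque genes, 5 were higher in Pkd1KO than in Pkd1KO+ciliaKO females, among them the basal keratins *Krt15* at 1.29 (SE 0.258), *Krt14* at 1.10 (SE 0.269) and *Krt5* at 0.64 (SE 0.169) and the epithelial keratin *Krt80* at 0.34 (SE 0.0872). *Krt14* also passed between these genotypes in males, at 1.08 (SE 0.283). Against noncystic mice of the same sex *Krt14* was lower in Pkd1KO+ciliaKO males (-1.20, SE 0.305) and females (-1.15, SE 0.281), with *Krt15* lower in males and *Krt5* in females, and *Krt80* was higher in Pkd1KO males, Pkd1KO+ciliaKO males and Pkd1KO females. Of 19 partners and receptors of the markers, *Sox8*, the sister of *Sox9*, was higher in Pkd1KO (1.48, SE 0.377) and Pkd1KO+ciliaKO males (1.07, SE 0.275), *Lrp2*, the megalin receptor that takes up filtered Lcn2, was lower in Pkd1KO+ciliaKO males (-0.49, SE 0.121), and *Sox8* was higher in Pkd1KO than in Pkd1KO+ciliaKO females. No other member of that list passed between genotypes.

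Genes of the mature proximal tubule lay the other way in males of both mutant genotypes, and those of the thick ascending limb in Pkd1KO males. Some genes of each segment differed between the mutant genotypes in males. Of 20 proximal tubule genes 0 were higher and 4 lower in Pkd1KO than in noncystic males: *Miox*, an inositol oxygenase, at -0.61 (SE 0.117), the gluconeogenic *Pck1* at -0.78 (SE 0.171), *Gatm* and the endocytic receptor *Cubn*, and the list's median was -0.28. In Pkd1KO+ciliaKO males 0 were higher and 4 lower (median -0.27), with *Slc5a2*, the glucose transporter Sglt2, at -4.48 (SE 0.160), followed by *Cubn*, *Slc5a12* and *Lrp2*. In females 2 were lower in each mutant genotype. Of 10 thick ascending limb genes 0 had values above 0 in Pkd1KO against noncystic males (median -0.29). Among them 2 were lower, *Egf* at -1.35 (SE 0.185) and *Slc12a1*. *Egf* was also lower in Pkd1KO+ciliaKO males (-0.64, SE 0.169), where 6 of the 10 had values above 0. Of 14 distal and collecting duct genes 1 (*Tfcp2l1*) was lower in Pkd1KO than in noncystic males, and 3 were higher in Pkd1KO+ciliaKO males, *Elf5* at 0.88 (SE 0.190), *Pvalb* at 1.81 (SE 0.459) and *Fxyd4* at 0.47 (SE 0.137). Of 8 intercalated cell genes 0 passed in Pkd1KO males and 1, the aquaporin *Aqp6*, was higher in Pkd1KO+ciliaKO males, at 0.66 (SE 0.132). Between Pkd1KO and Pkd1KO+ciliaKO males 2 thick ascending limb, 3 distal and collecting duct and 2 intercalated cell genes were lower in Pkd1KO and 0 higher. Of the 20 proximal tubule genes 1 was higher and 2 were lower in Pkd1KO in the same comparison. In Pkd1KO against noncystic males 3 of 9 macrophage (*Csf1r*, *Lyz2*, *Cd74*), 4 of 8 podocyte and parietal cell, 1 of 10 urothelial and 1 of 3 mast cell markers were higher, and none of the 9 endothelial, 8 fibroblast or 2 neutrophil markers tested passed. Between noncystic females and males 6 of 14 distal and collecting duct and 5 of 8 intercalated cell genes were higher in females, against 12.2% of all genes.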

How the data were processed

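TRAP RNASeq was measured in 45 kidneys, 1 per mouse. The authors deposited raw counts per gene, made with fastp 0.20.0, STAR 2.7.9 (GRCm38.p6, GENCODE vM25) and featureCounts 2.0.0, and, for each sex, TPM of protein-coding genes that reached 6 counts in 20% of its mice. Strand and multimapping options are not given in the sources used here. Groups came from the sample labels. The 10 markers and all lists were chosen with earlier results of these data known. Symbols matched 55141 of 55401 gene IDs.

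Counts were analysed with edgeR 4.0.16 in R 4.3.3 (TMM, quasi-likelihood, Benjamini-Hochberg, threshold 0.05) on the genes of the TPM tables: each pair of genotypes within a sex, noncystic females against males, and the sex by genotype interaction in all 45 mice, coded male minus female. The authors used DESeq2 for their tests, and DESeq2 1.42.0 and limma 3.58.1 were alternatives here. The edgeR step was tested on simulated data. Library totals were 80874556 to 132958186 counts, and intervals and floors cover counting error only. No 2 libraries of a group agreed within sampling noise (chi-square per degree of freedom at least 44.5 over 149 pairs).

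All 10 markers are named, *Kif3a* and *Pkd1* serve as the check of labels, each list is given by its counts with at most 4 called genes of smallest p, and each marker with the 3 genes of highest within-group r, of which 1 each for *Lcn2* and *Krt7* is not reported here. Other genes were named only under this rule, except *Ly6g*, chosen after its values were seen.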

Additional observations from a re-analysis of the deposited data

Results flagged for a closer look

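A single mouse stood apart from the rest of its group in 5 of the 60 combinations of marker and group, by Dixon's test at the 95% level. For normally distributed values and independent combinations chance gives about 1 in 20. The combinations share mice and the markers vary together, so the 5 cannot be read against that rate. *Havcr1* was 55.3 CPM in noncystic male 3, against 5.17 to 19.1 CPM in the other 7. *Krt8* was 197 CPM in Pkd1KO male 3 (others 119 to 145 CPM) and 136 CPM in Pkd1KO+ciliaKO female 1 (others 102 to 110 CPM). In Pkd1KO+ciliaKO male 8, *Krt20* was 9.05 CPM (others 1.12 to 5.05 CPM) and *Vcam1* 16.2 CPM (others 5.51 to 10.1 CPM). The 2 highest *Lcn2* values of Pkd1KO males lay together and so passed no such test.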

How the results depend on the processing

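The counts of markers past the threshold moved as follows, each with the share of all genes that passed at that setting. In Pkd1KO against noncystic males, 2 passed (6.3%), but 4 by DESeq2 (10.5%), 0 by limma on log2(TPM + 1) (3.91%), 0 by limma voom with sample quality weights (9.22%), 1 without the males toward the females (5.72%) and 0 without Pkd1KO males 3 and 4 (3.91%) (0 to 3 leaving out each mouse). In Pkd1KO against Pkd1KO+ciliaKO males, 0 (3.77%) became 1 by voom (8.69%) and 1 without the males toward the females (3.93%) (0 to 0 leaving out each mouse). In Pkd1KO+ciliaKO against noncystic males, 2 (8.89%) became 4 by voom (17.5%) and 4 without those males (14.0%) (2 to 4). In Pkd1KO against noncystic females, 0 (3.34%) became 1 by DESeq2 (6.03%) (0 to 0), and in Pkd1KO+ciliaKO against noncystic females 0 stayed 0 (0 to 0). In Pkd1KO against Pkd1KO+ciliaKO females, 1 (11.7%) became 4 by DESeq2 (16.0%), 0 with DESeq2's size factors (11.6%), 3 by voom (16.5%) and 2 with the 3 genotypes in one fit (13.2%) (0 to 3). Between noncystic females and males, 5 (27.5%) became 3 without the library whose *Kif3a* goes against its label (24.2%) and 9 without noncystic male 3 (35.5%) (3 to 9). The cause of these moves was not tested. No called value changed sign, while uncalled ones did (*Havcr1* in Pkd1KO against noncystic males from 0.92 to -0.22 without Pkd1KO males 3 and 4), and the order of levels by length kept its places for 10 of 10 markers in 5 groups and 8 of 10 in Pkd1KO males.

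Replicate numbers do not pair the mice (r of deviations of same-numbered mice -0.43 to 0.48, median -0.02, over 0.1 in 14 of 41 pairs). With the replicate block, Pkd1KO against noncystic males gave 0 markers at 5.0% of all genes, *Lcn2* at 1.38 (edgeR adjusted p = 0.0563) and *Krt20* at 1.21 (edgeR adjusted p = 0.149), and 5 of 30 injury response genes in place of 10. In Pkd1KO against Pkd1KO+ciliaKO females it gave 3 of 30 in place of 6, at 3.83% of all genes. The block also ended the call of *Sox9* between noncystic females and males (0.56, edgeR adjusted p = 0.0711). Beyond these 3 it ended no call of a marker. The TPM test between the sexes was not run, since the tables were scaled separately. Wide spread within groups limits *Havcr1*, whose SE reached 0.558 in a comparison of genotypes.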

Other observations

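The labels number the mice, and 4 of the males that stood out came early in that order: Pkd1KO+ciliaKO male 6, noncystic male 3, Pkd1KO+ciliaKO male 8 and Pkd1KO male 3 carried the numbers ranked 1, 2, 3 and 4 of the 45, and Pkd1KO male 4 ranked 8. What the order of numbers stands for is not given in the labels, and its part in the marker levels was not tested.

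Among females, Pkd1KO female 3 was the highest of its group in 5 of the 10 markers and among the highest 2 in 8, and Pkd1KO+ciliaKO female 1 was the highest in 4 and among the highest 2 in 6, while its *Vcam1*, at 5.41 CPM, was the lowest of all females. Pkd1KO+ciliaKO female 5 was the lowest of its group in 5 markers.

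*Csf1r*, the receptor of Il34, was higher in Pkd1KO than in Pkd1KO+ciliaKO mice of both sexes, by 0.77 (SE 0.125) in males and 0.78 (SE 0.158) in females on the log2 scale, and *Slc5a2* by 4.20 (SE 0.252) and 2.30 (SE 0.673). The female values include the library labelled Pkd1KO+ciliaKO female 6, whose *Kif3a*, at 20.7 CPM, goes against its label. Values without that library are not given here, so the sexes are not compared in these genes.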
